A study of Homo sapiens with 6 samples.

Results

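The nuclear-encoded genes of the mitochondrial respiratory chain and ATP synthase were compared between 5aza-treated and control HCT116 cells, a human colorectal carcinoma line. Members were the rows whose Ensembl identifier maps to a symbol beginning with NDUF, SDHA, SDHB, SDHC, SDHD, UQCR, UQCC, COX and a number, or ATP5. This gave 101 genes of the 16715 distinct identifiers in the expression table. They comprised 41 genes of complex I, 7 of complex II, 13 of complex III, 19 of complex IV and 14 of complex V, each with its dedicated assembly or regulatory factors, and 7 tissue-restricted isoforms or gene copies, which are described apart. A further 16 protein-coding symbols that match the rule, among them COX8A, COX7B, NDUFA1 and ATP5F1E, are not analysed here, and neither are the subunits encoded in mitochondrial DNA.

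RNA was sequenced from 3 libraries of cells given 5 µM 5aza for 48 h and then kept in fresh medium for 48 h, and from 3 libraries of control cells of the same line. The treated libraries carry the code DAC in the sample descriptions and the name 5aza in the titles, and 5aza is used here. No vehicle is named for the control cells, and nothing in the labels says that the 3 libraries of a group came from separate cultures, so the p-values measure the spread between these libraries only. Values are FPKM (fragments scaled by gene length and library size), as deposited, which carry no read totals. All comparisons used limma on log2(FPKM + 0.1), with the Benjamini-Hochberg adjustment over the 12360 genes that reached 0.5 FPKM in at least 3 libraries, and "rose" and "fell" are used of genes with an adjusted p under 0.05. All log2 values below are 5aza minus control on that scale.

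FPKM over all genes summed to between 577735 and 592051 in the 5aza libraries and between 601916 and 628399 in the control libraries, and the groups did not overlap. Between 755 and 801 genes were listed at 0 in the 5aza libraries, against 1663 to 1761 in the control libraries. Colon epithelial markers summed to 3000 to 3076 FPKM in 5aza libraries and 2503 to 2660 FPKM in control libraries, led by the keratins KRT8, KRT18 and KRT19, which rose, while EPCAM fell (153 FPKM in 5aza and 166 FPKM in control cells) and CLDN7 had all 5aza libraries below all control libraries. All 9 epithelial markers looked up had a row, and the microvillus marker VIL1 averaged 0.124 FPKM in 5aza cells and 0.0531 FPKM in control cells. The leukocyte list summed to 6.03 to 6.83 FPKM in 5aza libraries and 3.30 to 4.58 FPKM in control libraries, most of it CD68, with PTPRC at 0.0650 FPKM in 5aza and 0.00798 FPKM in control cells. Fibroblast and endothelial lists summed to 32.2 to 33.9 and 0.695 to 0.846 FPKM in 5aza libraries, against 31.4 to 31.7 and 0.416 to 0.554 FPKM in control libraries. PDGFRA made up most of the fibroblast sum, with 25.7 FPKM in 5aza and 26.7 FPKM in control cells, and COL1A1 rose, with 6.71 FPKM in 5aza and 4.67 FPKM in control cells (limma adjusted p = 0.00320). The part of these marker levels in the results below was not tested. In a bulk library, fewer cells of a type and less RNA per cell cannot be told apart.

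The respiratory chain carries electrons from NADH and succinate to oxygen through complexes I to IV in the inner mitochondrial membrane, pumping protons that complex V uses to make ATP. Most of its subunits are encoded in the nucleus, and assembly factors that are not part of the finished complexes build them and insert haem, copper and iron-sulfur centres. Many of these genes have CpG-rich promoters with sites for NRF1, for ETS-family factors such as GABP, and for YY1. A few complex IV subunits have second copies used mainly in testis, muscle, heart or lung.

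In 5aza cells 26 of 66 subunit genes and 4 of 27 assembly factor genes of the respiratory chain fell, all by small amounts. A negative log2 change was seen in 63 of the 66 subunits, although under TPM scaling only 50 of all 98 members tested had one. None of the ubiquitous genes rose as reported, although NDUFS1 and ATP5IF1 did under TPM, quantile normalization and expression-trend removal, COX4I1 under quantile normalization and NDUFB9 under expression-trend removal. Of the 94 members outside the isoforms, all of which passed the filter on low values, 30 fell, 0 rose and 64 did not pass the test. Among all genes tested 13.1% fell and 10.6% rose. The 94 members had a median log2 change of -0.11, and 82 of them were negative, against a median of -0.01 over all genes tested. All 3 5aza libraries lay below all 3 control libraries for 40 of the 94, where 22.6% of all genes tested did so, and above them for 1, the complex I core subunit NDUFS1, where the share over all genes was 19.6%. The 30 falls were small: the steepest, of NDUFB1, was a log2 change of -0.39.

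The size of these counts depended on level and on scaling. Respiratory chain transcripts were abundant, with a median of 93.2 FPKM against 12.5 FPKM over the genes tested, and genes in the higher ranges of level fell more often in general. Among genes above 200 FPKM, 10 of 23 members fell (43.5%), against 45.1% of all genes in that range. Between 100 and 200 FPKM the member share was 9 of 21 (42.9%), against 36.9% of all genes, and between 50 and 100 FPKM it was 6 of 21 (28.6%), against 30.3%. Between 10 and 50 FPKM it was 5 of 23 (21.7%), against 15.4%, and none of the 6 members from 1 to 10 FPKM fell. At matched level, then, the members' shares of falls lay near those of all genes. In these ranges from 10 FPKM up no member rose, where 10.3%, 7.96%, 5.77% and 5.42% of all genes did, from the lowest range to the highest. The members' median log2 changes in the same order were -0.05, -0.12, -0.13 and -0.13, against -0.03, -0.07, -0.09 and -0.12 for all genes.

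After each library was rescaled to a common sum (TPM), 14 members fell and 5 rose, with 50 of 98 negative, and the split over all genes turned to 779 that fell and 2239 that rose. After a trend of change with expression level was removed, 11 members fell and 6 rose, with 60 negative, and quantile normalization gave 13 and 6, with 61 negative. The rises here and as reported include the isoforms COX8C, COX7B2 and NDUFA4L2, which passed the filter on low values only through the 5aza libraries. With them counted, the share of rises among the members' calls was 26.3%, 35.3% and 31.6% under these settings. It was 9.09% as reported, where no other member rose. With no variance trend in the model 10 members fell. Leaving out 5aza library 1, 2 or 3 left 19, 14 and 16 falls, leaving out control library 1 or 2 left 14 each, and leaving out control library 3 gave 36. All 30 members that fell kept a negative sign in every one of 25 alternative settings. The filters, variance models and replicate block leave a gene's log2 change as it was, so they could not turn a sign. Fits without a library were run both with the filter applied again and with the tested genes kept fixed, with the same log2 changes. The 25 settings are therefore not independent checks, for signs or for calls. The call itself was kept in all 25 by 7 of the 30 members. These were NDUFA2, NDUFA9, NDUFB1 and NDUFB6 of complex I, UQCRQ and UQCC3 of complex III, and ATP5MC2 of complex V. NDUFA12, NDUFB10 and UQCC2 also fell under each of the TPM, quantile, median-centred, expression-trend and length-trend settings. These 10 genes are singled out by their stability after their values were seen.

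**Figure D1:**
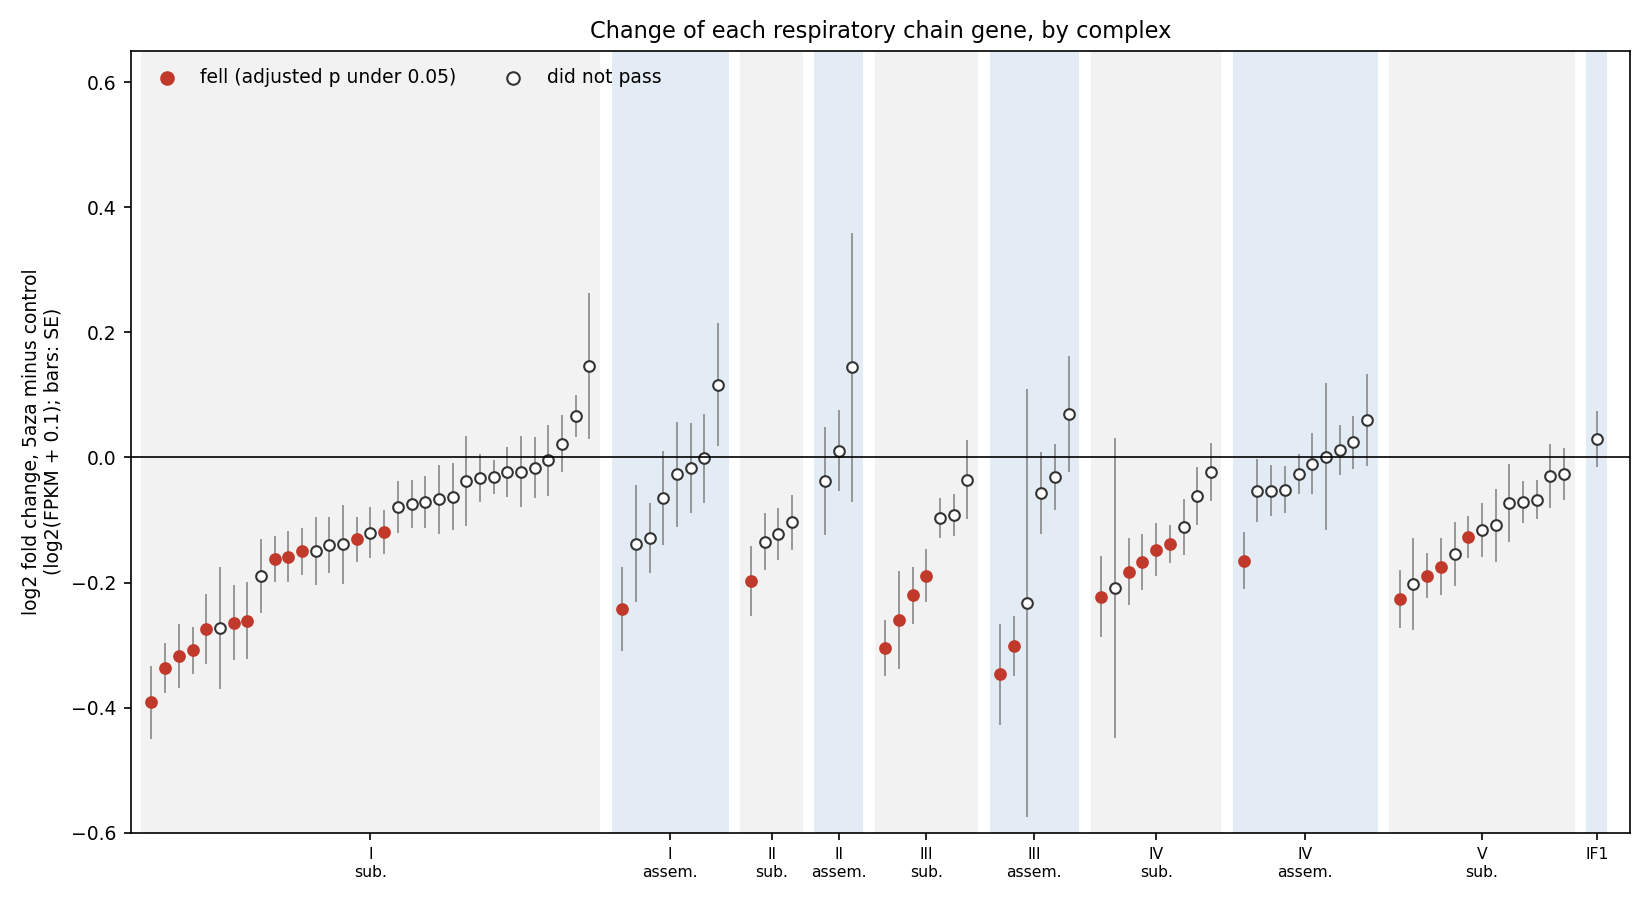
Log2 change (5aza minus control, limma on log2(FPKM + 0.1)) of each of the 94 members outside the isoforms, by complex, with subunits (sub.) and assembly factors (assem.) apart and ATP5IF1 as IF1; bars are the standard error. Filled points are the 30 genes that fell; no member rose here, whereas 6 of the 98 tested, isoforms included, rose under quantile normalization or after the expression trend was removed, and 5 under TPM.

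**Figure D2:**
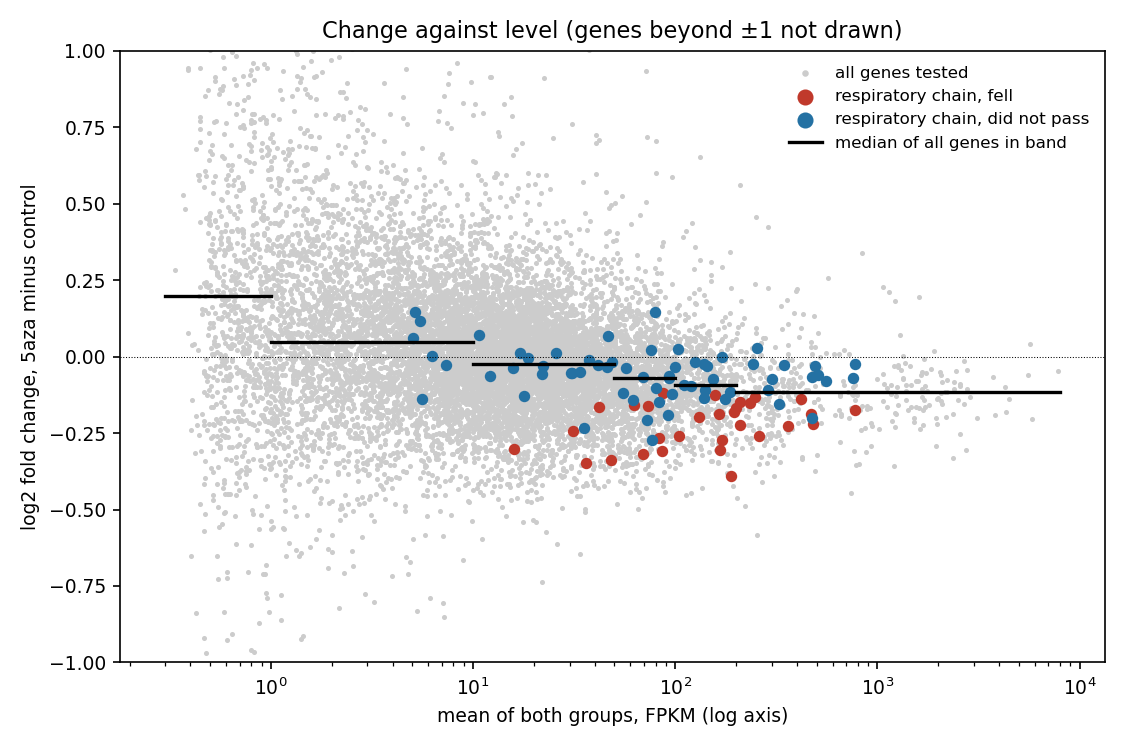
Log2 change against mean FPKM of both groups (log axis) for all genes tested (grey) and the 94 members outside the isoforms (coloured), with genes beyond a change of 1 in either direction not drawn. Black lines are the median of all genes in each range of level, which goes from 0.20 below 1 FPKM to -0.12 above 200 FPKM, and the members scatter around and below these lines.

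RefSeq promoter windows (GRCh38.p14, 250 bases before to 50 after each start) were found for 83 of the 101 members, in 105 windows. Each was searched on both strands for the NRF1 pattern (GCGCA, any base, GCGC), the ETS pattern CCGGAAGT and the YY1 pattern AAGATGGCG. At least 1 of the 3 was present in 42 of the 102 windows of members outside the isoforms (41.2%), against 18.6% of the 13852 windows of genes tested and 10.8% of all 35116 windows. The NRF1 pattern was in 21.6% of member windows and 9.61% of windows of genes tested, the ETS pattern in 12.7% and 7.36%, and the YY1 pattern in 13.7% and 3.37%. Members that fell held a pattern in 14 of 34 windows (41.2%) and members that did not pass in 28 of 68 (41.2%). By pattern, the windows of members that fell and of members that did not pass held the NRF1 pattern in 20.6% and 22.1%, the ETS pattern in 17.6% and 10.3%, and the YY1 pattern in 14.7% and 13.2%. The 250 bases before the start are shown for 4 members that fell, to show where these patterns lie: NDUFA9 (chr12:4648864-4649113, plus strand), NDUFB4 (chr3:120596086-120596335, plus strand) and UQCRC1 (chr3:48609647-48609896, minus strand), with the NRF1 pattern in capitals, and UQCRQ (chr5:132866392-132866641, plus strand), with the ETS pattern in capitals.
NDUFA9: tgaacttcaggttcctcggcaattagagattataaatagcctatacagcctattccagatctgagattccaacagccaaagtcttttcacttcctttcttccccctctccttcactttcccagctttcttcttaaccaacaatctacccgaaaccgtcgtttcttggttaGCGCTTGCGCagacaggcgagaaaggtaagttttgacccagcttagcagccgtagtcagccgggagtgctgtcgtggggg
NDUFB4: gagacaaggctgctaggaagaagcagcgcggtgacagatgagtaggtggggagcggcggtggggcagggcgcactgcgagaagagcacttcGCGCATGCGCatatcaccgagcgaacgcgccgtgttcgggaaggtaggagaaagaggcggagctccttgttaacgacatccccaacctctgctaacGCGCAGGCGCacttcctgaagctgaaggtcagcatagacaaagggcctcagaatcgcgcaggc
UQCRC1: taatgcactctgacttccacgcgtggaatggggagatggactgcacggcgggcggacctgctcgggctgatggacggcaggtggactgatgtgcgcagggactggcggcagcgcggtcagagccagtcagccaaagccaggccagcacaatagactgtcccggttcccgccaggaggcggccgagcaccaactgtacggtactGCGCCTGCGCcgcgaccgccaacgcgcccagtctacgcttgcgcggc
UQCRQ: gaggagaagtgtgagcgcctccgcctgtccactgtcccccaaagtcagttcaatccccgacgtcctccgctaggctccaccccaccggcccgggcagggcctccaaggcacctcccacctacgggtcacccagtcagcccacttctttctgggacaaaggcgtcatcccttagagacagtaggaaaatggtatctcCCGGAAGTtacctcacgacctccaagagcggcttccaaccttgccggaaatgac
NDUFB4 held 2 NRF1 matches in these bases and the other 3 promoters 1 match each. A match describes the letters of the window and is not a measured binding site.

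Summed over its member subunits, every complex had less FPKM in 5aza than in control libraries. The complex III sums leave out its subunit CYC1, whose symbol the rule did not take. Complex III had the lowest sum relative to control, at 1136, 1084 and 1102 FPKM in the 5aza libraries and 1327, 1262 and 1228 FPKM in the control libraries, or 87.0% of control. Complex I (33 subunits) summed to 4308 ± 80.6 FPKM in 5aza cells and 4693 ± 179 FPKM in control cells (SD, n = 3 each), or 91.8%. Complex II summed to 424 ± 8.21 FPKM in 5aza and 469 ± 20.8 FPKM in control cells (90.4%). Complex IV summed to 2770 ± 48.3 FPKM in 5aza and 2983 ± 129 FPKM in control cells (92.9%), and complex V to 4689 ± 127 FPKM in 5aza and 5124 ± 159 FPKM in control cells (91.5%). In each complex all 5aza sums lay below all control sums. FPKM over all genes stood at 94.6% of control, and as a percentage of it the subunit sums were 92.0% of control for complex III, 95.6% for complex II, 97.0% for complex I, 96.8% for complex V and 98.2% for complex IV. On that scale the complex IV libraries of the groups overlapped and those of the other 4 complexes still did not. The median log2 change of the subunits was -0.12 for complex I, -0.13 for complex II, -0.19 for complex III, -0.15 for complex IV and -0.12 for complex V, and under TPM it was -0.04, -0.05, -0.11, -0.07 and -0.04.

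**Figure D3:**
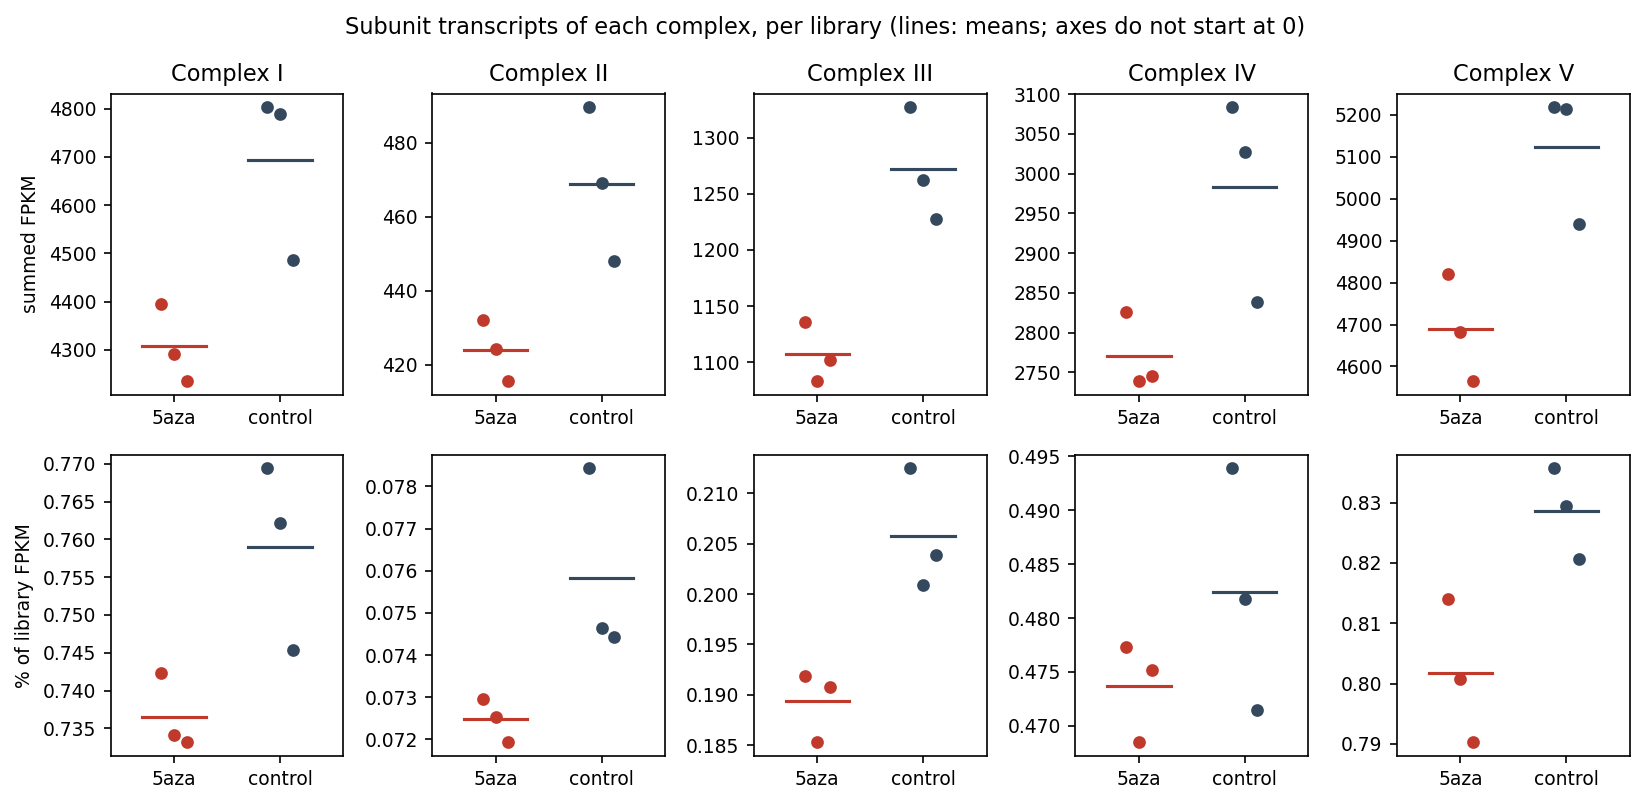
Summed FPKM of the member subunits of each complex (top row) and the same sum as a percentage of all FPKM of the library (bottom row). Each library is 1 point, with the group mean as a line and 5aza left of control. CYC1 of complex III is not in its sum. The axes do not start at 0; the groups are apart in every panel except the percentage for complex IV.

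Complex I takes electrons from NADH. Its 7 nuclear core subunits, among them those that hold the flavin and the iron-sulfur centres, did not pass the test in either direction, with a median log2 change of -0.07, while 12 of its 26 accessory subunits fell, with a median of -0.14. The difference between core and accessory subunits was not tested. Over all genes tested the share that fell was 13.1%. It was 30.3% between 50 and 100 FPKM, 36.9% between 100 and 200 FPKM and 45.1% above 200 FPKM, and the accessory subunits spanned these ranges. NDUFB1, a small membrane-arm accessory subunit, had 174, 163 and 153 FPKM in the 5aza libraries, against 227, 215 and 201 FPKM in the control libraries. The groups were well apart, at 76.2% of the control mean and a log2 change of -0.39 (SE 0.06, limma adjusted p = 0.00341). NDUFB6, another membrane-arm subunit, had 43.4, 43.5 and 40.7 FPKM in 5aza and 55.1, 52.2 and 54.0 FPKM in control libraries. NDUFA2, an accessory subunit of the matrix arm, had 64.8, 59.4 and 60.7 FPKM in 5aza and 78.8, 79.9 and 71.9 FPKM in control libraries. Neither overlapped between groups, with log2 changes of -0.34 (SE 0.04, adjusted p = 0.00134) and -0.32 (SE 0.05, adjusted p = 0.00467). NDUFA2 and NDUFB6 share exonic sequence with genes on the opposite strand, and since the sources used here do not say whether strand was kept, reads of such partners cannot be told apart.

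The other 9 accessory subunits that fell had log2 changes from -0.31 (NDUFA9, which sits where the matrix and membrane arms meet) to -0.12 (NDUFA10). NDUFA9 had 75.0, 78.4 and 76.5 FPKM in 5aza and 99.1, 92.1 and 93.8 FPKM in control libraries, with no overlap and a log2 change of -0.31 (SE 0.04, adjusted p = 0.00142). By the assembly modules of the membrane arm, a grouping made after the values were seen, 4 of 5 subunits of the ND4 module fell (NDUFB1, NDUFB4, NDUFB6 and NDUFB10, with NDUFB5 at a log2 change of 0.02), and 2 of 6 of the ND5 module did. Among all genes in the ranges of level from 10 FPKM up, between 15.4% and 45.1% fell. The most abundant complex I transcript was NDUFS5, an intermembrane-space subunit, with 568, 548 and 517 FPKM in 5aza and 574, 591 and 559 FPKM in control libraries. These overlapped (log2 change -0.08, adjusted p = 0.205), and the sign turned to 0.00019 under TPM and 0.03 after the expression trend was removed. The core subunit NDUFS1, which did not pass as reported (47.7, 47.8 and 47.6 FPKM in 5aza, 46.3, 46.4 and 44.1 FPKM in control libraries, adjusted p = 0.192), rose under TPM (0.15), quantile normalization (0.12) and trend removal (0.12). It was also chosen after its values were seen.

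The 8 complex I assembly factors had a median log2 change of -0.05, and 1 of them fell (12.5%, against 13.1% of all genes tested). That was NDUFAF3, an early assembly factor, with 30.1, 29.2 and 26.2 FPKM in 5aza and 33.4, 36.2 and 31.6 FPKM in control libraries (log2 change -0.24, SE 0.07, adjusted p = 0.0371). Its groups did not overlap, but the call was lost under TPM (adjusted p = 0.0696), with no variance trend (0.0819), with no filter on low values (0.0503), after length correction (0.0566), and without 5aza library 2 or 3 or control library 1 or 2 (0.0738, 0.101, 0.0837 and 0.107). The other 7 lay between 5.22 and 170 FPKM in control cells, with log2 changes from -0.14 (NDUFAF5) to 0.12 (NDUFAF7).

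Complex II, or succinate dehydrogenase, links the citric acid cycle to the chain and is wholly nuclear-encoded. SDHC, one of its membrane anchors, fell: it had 118, 129 and 120 FPKM in the 5aza libraries and 152, 137 and 132 FPKM in the control libraries (log2 change -0.20, SE 0.06, limma adjusted p = 0.0403). The groups did not overlap. The other anchor, SDHD, had 139, 128 and 131 FPKM in 5aza and 153, 142 and 142 FPKM in control libraries, also without overlap, but did not pass (log2 change -0.13, adjusted p = 0.0669). The flavoprotein SDHA had 78.5, 78.5 and 74.7 FPKM in 5aza and 83.8, 86.8 and 78.5 FPKM in control libraries. The iron-sulfur subunit SDHB had 95.8, 89.5 and 90.3 FPKM in 5aza and 101, 103 and 95.5 FPKM in control libraries. Both overlapped at their edges and did not pass (log2 changes -0.10 and -0.12, adjusted p = 0.128 and 0.0718). None of the 3 assembly factors SDHAF1, SDHAF3 and SDHAF4 passed, with log2 changes of -0.04, 0.01 and 0.14.

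These calls turned on single libraries and settings. That of SDHC was lost without 5aza library 1 or 3 (adjusted p = 0.115 and 0.119), without control library 1 or 2 (0.0862 and 0.0748), and under TPM (0.130), quantile normalization (0.116), expression-trend removal (0.179), no variance trend (0.0968) and no filter (0.0553). Without control library 3, SDHA and SDHB fell as well (adjusted p = 0.0399 and 0.0361), and without 5aza library 1 SDHD did (0.0471).

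Complex III passes electrons from ubiquinol to cytochrome c. Of its 7 subunits that the rule took, 4 fell and 6 had all 5aza libraries below all control libraries, with a median log2 change of -0.19. CYC1, a further subunit whose symbol the rule did not take, also fell without overlap (log2 change -0.27, limma adjusted p = 0.00449). Shares over all genes tested were 13.1% for falls and 22.6% for groups lying wholly below, and 36.9% of genes between 100 and 200 FPKM fell. UQCRQ, a small membrane subunit, had 150, 150 and 145 FPKM in the 5aza libraries and 196, 179 and 175 FPKM in the control libraries. It lay at 80.9% of the control mean with no overlap (log2 change -0.30, SE 0.04, limma adjusted p = 0.00319). UQCRH, the acidic hinge subunit and the most abundant complex III transcript, had 458, 429 and 440 FPKM in 5aza and 547, 509 and 492 FPKM in control libraries (log2 change -0.22, SE 0.05, adjusted p = 0.0124). UQCRB, which takes part in ubiquinone binding, had 96.7, 85.4 and 103 FPKM in 5aza and 123, 105 and 113 FPKM in control libraries (log2 change -0.26, SE 0.08, adjusted p = 0.0474). The groups did not overlap for UQCRH or UQCRB, and nearly touched for UQCRB. The fourth was UQCRC1, a core subunit facing the matrix, with means of 153 ± 5.24 FPKM in 5aza cells and 174 ± 8.08 FPKM in control cells (SD, n = 3 each; log2 change -0.19). UQCRC2, UQCR10 and the Rieske iron-sulfur protein UQCRFS1 had log2 changes of -0.10, -0.09 and -0.04 and did not pass.

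Complex III assembly factors divided. UQCC2 and UQCC3, which act on cytochrome b during early assembly, fell, and UQCC1, UQCC4, UQCC5 and UQCC6 did not pass. That is 2 of 6, where 13.1% of all genes tested fell and 15.4% of those between 10 and 50 FPKM. UQCC2 had 31.2, 33.0 and 30.8 FPKM in 5aza and 43.1, 43.2 and 35.0 FPKM in control libraries (log2 change -0.35, SE 0.08, adjusted p = 0.0198). UQCC3 had 15.0, 13.8 and 14.0 FPKM in 5aza and 17.4, 18.0 and 17.4 FPKM in control libraries (log2 change -0.30, SE 0.05, adjusted p = 0.00455). Neither overlapped between groups. UQCC5 varied most within groups, with 44.2, 26.7 and 24.5 FPKM in 5aza and 53.9, 40.4 and 21.5 FPKM in control libraries.

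Among these calls UQCRQ and UQCC3 were kept in all 25 settings and UQCRH in 24, being lost after expression-trend removal (adjusted p = 0.0585). That of UQCRB was lost without 5aza library 1 or 2 or control library 1 or 3 (adjusted p = 0.0908, 0.117, 0.129 and 0.0888), and under TPM, quantile normalization and expression-trend removal (0.136, 0.169 and 0.168). That of UQCC2 was lost without 5aza library 1 or 3 or control library 1 or 2 (0.0596, 0.0679, 0.0622 and 0.0641). With no variance trend UQCRB, UQCRC1 and UQCC2 were not called. Over the 25 settings UQCRB was called in 12, and UQCRC1 and UQCC2 in 16 each. UQCRQ, UQCRB, UQCC2 and UQCC3 overlap exons of genes on the opposite strand.

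Complex IV, cytochrome c oxidase, reduces oxygen. Of its 9 ubiquitous nuclear subunits with a row (NDUFA4, named for complex I but now placed here, included), 5 fell, all 9 were negative and the median log2 change was -0.15. Of all genes tested 13.1% fell, and of those above 200 FPKM 45.1% did. COX7A2, a small membrane subunit, had 206, 178 and 192 FPKM in the 5aza libraries and 237, 229 and 207 FPKM in the control libraries (log2 change -0.22, SE 0.07, limma adjusted p = 0.0438). COX6C had 189, 173 and 185 FPKM in 5aza and 219, 208 and 193 FPKM in control libraries (log2 change -0.18, adjusted p = 0.0441). COX5A, a matrix-side subunit, had 189, 180 and 195 FPKM in 5aza and 204, 223 and 207 FPKM in control libraries (log2 change -0.17, adjusted p = 0.0335). The groups were apart for all 3 genes, though they nearly touched for COX7A2 and COX6C. COX5B and COX7C also fell, with log2 changes of -0.15 and -0.14. COX4I1, the most abundant complex IV transcript, had 776, 787 and 738 FPKM in 5aza and 809, 799 and 732 FPKM in control libraries. These overlapped (log2 change -0.02, adjusted p = 0.750), and the sign turned to 0.06 under TPM, 0.13 under quantile normalization, where it passed (adjusted p = 0.0373), and 0.10 after expression-trend removal. NDUFA4 was the most scattered subunit, with 75.4, 57.3 and 64.4 FPKM in 5aza and 109, 51.6 and 76.7 FPKM in control libraries.

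None of the 5 falls of complex IV subunits was called under TPM, quantile normalization, expression-trend removal or no variance trend, and the count was 0 without 5aza library 2 and 0 without control library 2, against 6 without control library 3. COX7A2 was not called without 5aza library 2 or 3 or control library 1 or 2 (adjusted p = 0.124, 0.107, 0.124 and 0.118), COX5A not without 5aza library 1 or 2 or control library 2 (0.0778, 0.105 and 0.0861), and COX6C not without any library other than control library 3 (0.0589 to 0.131). Of the 10 complex IV assembly factors, 1 fell (10%, against 13.1% of all genes tested) and the median log2 change was -0.02. That was COX17, the copper chaperone of the enzyme, with 37.9, 39.3 and 41.4 FPKM in 5aza and 44.8, 42.5 and 45.7 FPKM in control libraries (log2 change -0.16, SE 0.05, adjusted p = 0.0352). Its groups did not overlap, and the call was lost without 5aza library 1 or 2 or control library 1 or 3 (adjusted p = 0.103, 0.0955, 0.0967 and 0.0885) and under TPM (0.298), quantile normalization (0.141), expression-trend removal (0.170), length-trend removal (0.134) and no variance trend (0.0801). The haem A synthesis enzymes COX10 and COX15 had log2 changes of 0.01 and -0.03, and the copper-handling factors COX11 and COX19 had -0.05 and 0.06; none passed. COX7A2L, a supercomplex factor, averaged 104 ± 2.34 FPKM in 5aza cells and 102 ± 5.36 FPKM in control cells (SD, n = 3 each).

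Complex V makes ATP from the proton gradient. Of its 13 subunits with a row, 4 fell and all 13 were negative, with a median log2 change of -0.12. For comparison, 13.1% of all genes tested fell, and 45.1% of those above 200 FPKM. ATP5MC2, one of 3 genes for the same proton-carrying c subunit, had 334, 342 and 323 FPKM in the 5aza libraries and 412, 391 and 367 FPKM in the control libraries. The groups did not overlap (log2 change -0.23, SE 0.05, limma adjusted p = 0.0120). The other c subunit genes, ATP5MC3 and ATP5MC1, had log2 changes of -0.15 and -0.07 and did not pass (adjusted p = 0.0645 and 0.436). ATP5PD, a peripheral stalk subunit, had 456, 426 and 427 FPKM in 5aza and 505, 502 and 485 FPKM in control libraries (log2 change -0.19, SE 0.04, adjusted p = 0.00958). ATP5MK, a small membrane subunit and the most abundant complex V transcript by the mean over all 6 libraries (ATP5F1B was higher in 5aza cells, at 736 FPKM), had 768, 719 and 690 FPKM in 5aza and 821, 843 and 792 FPKM in control libraries (log2 change -0.17, SE 0.05, adjusted p = 0.0288). Neither overlapped between groups. In the catalytic head, ATP5F1C fell by 0.13 on the log2 scale, while ATP5F1A and ATP5F1B, the subunits that bind nucleotides, had log2 changes of -0.07 each and did not pass.

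ATP5MC2 was called in all 25 settings and ATP5PD in 24, being lost after expression-trend removal (adjusted p = 0.0657). ATP5MK was called in 12 of the 25. It was not called without 5aza library 2 or 3 or control library 1 or 2 (adjusted p = 0.0883, 0.0917, 0.0756 and 0.0890), nor under TPM (0.0634) or quantile normalization (0.623). The call was also lost after expression-trend removal and with no variance trend. ATP5IF1, which inhibits ATP hydrolysis by the enzyme, had 271, 252 and 245 FPKM in 5aza and 255, 256 and 242 FPKM in control libraries, with overlapping groups (log2 change 0.03, adjusted p = 0.674). It rose under TPM (0.11, adjusted p = 0.0428), quantile normalization (0.13, adjusted p = 0.0409) and expression-trend removal (0.13, adjusted p = 0.0237), and is named after its values were seen.

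Of the 7 tissue-restricted isoforms and copies, 4 passed the filter on low values and 3 of these rose, all at levels near 1 to 3 FPKM. COX8C, a copy of complex IV subunit 8 used mainly in testis, had 2.98, 3.62 and 1.89 FPKM in the 5aza libraries and was listed at 0 in all 3 control libraries. COX7B2, a copy of subunit 7B also used mainly in testis, had 1.16, 0.651 and 1.15 FPKM in 5aza libraries and was likewise listed at 0 in every control library. Both rose (limma adjusted p = 4.27e-05 for COX8C and 0.000442 for COX7B2), and no fold is given against a group listed at 0. NDUFA4L2, a relative of NDUFA4 known as a target of hypoxia signalling, had 1.02, 1.04 and 1.46 FPKM in 5aza and 0.471, 0.452 and 0.391 FPKM in control libraries, with a log2 change of 1.23 (SE 0.20, adjusted p = 0.00467). These 3 genes passed the filter on low values only through the 5aza libraries, so they had to differ, and neither their count nor their adjusted p-values are support of their own. When the filter was applied again without any 1 of the 5aza libraries they were not tested, because too few libraries then reached it. With the genes tested kept fixed, the same 3 genes rose in each of these fits. That fixed set was chosen with all 6 libraries, the omitted one included, so these rises are not support either.

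COX6B2, the testis copy of subunit 6B, had 1.42, 0.952 and 1.44 FPKM in 5aza and 1.14, 1.16 and 1.08 FPKM in control libraries, which overlapped (log2 change 0.14, adjusted p = 0.628); the sign turned to -0.08 under quantile normalization and -0.04 after expression-trend removal. COX7A1, the heart and muscle copy of subunit 7A, had 0.110, 0.333 and 0.0552 FPKM in 5aza libraries and was listed at 0 in the control libraries. It was below the filter, and with no filter it had an adjusted p of 0.0493. COX4I2, a copy of subunit 4 used mainly in lung, had 0, 0.125 and 0.0615 FPKM in 5aza libraries and 0 in each control library, and UQCRHL, a copy of UQCRH, stayed at or below 0.0270 FPKM in all 6. Neither was tested.

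Even after 5aza these isoforms were minor transcripts. COX8C averaged 2.83 ± 0.873 FPKM (SD, n = 3), against 65.7 ± 9.12 FPKM in the same cells for NDUFA4, the lowest of the ubiquitous complex IV subunits with a row. COX8C (chr14:93347191-93348356, plus strand, GENCODE 29 on GRCh38) lies within the span of UNC79 with no exon in common, and UNC79 averaged 0.0285 FPKM in 5aza and 0.00576 FPKM in control cells. BTBD7, the next gene before UNC79 with a row, had 10.2 FPKM in 5aza and 9.50 FPKM in control cells and did not pass (adjusted p = 0.242). Around COX7B2, GABRA2 was listed at 0 in all libraries, and COMMD8 had 24.6 FPKM in 5aza and 27.9 FPKM in control cells (adjusted p = 0.0624). NDUFA4L2 shares exonic sequence with SHMT2 on the opposite strand, which fell, with 155 FPKM in 5aza and 177 FPKM in control cells, and reads of the pair cannot be told apart without strand. The number of genes listed at 0, lower in the 5aza libraries, moved with the isoform results, and its part in them was not tested.

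The 250 bases before the RefSeq start of the isoforms that were listed at 0 in control cells and rose are shown because drugs of the azacytidine class are known to lower cytosine methylation, which in mammals falls mainly on CpG sites: COX8C (GRCh38.p14, chr14:93346932-93347181, plus strand) and COX7B2 (chr4:46909246-46909495, minus strand), with CpG dinucleotides in capitals.
COX8C: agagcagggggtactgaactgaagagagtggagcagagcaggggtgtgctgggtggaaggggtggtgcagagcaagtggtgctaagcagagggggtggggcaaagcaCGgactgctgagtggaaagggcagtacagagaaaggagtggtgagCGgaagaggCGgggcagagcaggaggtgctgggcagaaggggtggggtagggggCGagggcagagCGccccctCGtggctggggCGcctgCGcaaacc
COX7B2: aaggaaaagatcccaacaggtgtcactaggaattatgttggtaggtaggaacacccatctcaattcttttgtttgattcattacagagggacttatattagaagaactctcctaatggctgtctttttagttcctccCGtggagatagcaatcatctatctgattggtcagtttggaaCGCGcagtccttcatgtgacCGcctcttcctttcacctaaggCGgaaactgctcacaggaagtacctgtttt
COX8C held 8 CpG in these bases and COX7B2 held 5, against a median of 20 over the promoters of genes tested. Over the full 300-base windows the counts were 10 and 8, against 31 for COX6B2, which did not pass, and medians of 23 for members outside the isoforms and 25 for genes tested. The COX8C window also held the NRF1 pattern. DNA methylation was not measured in these libraries.

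**Figure D4:**
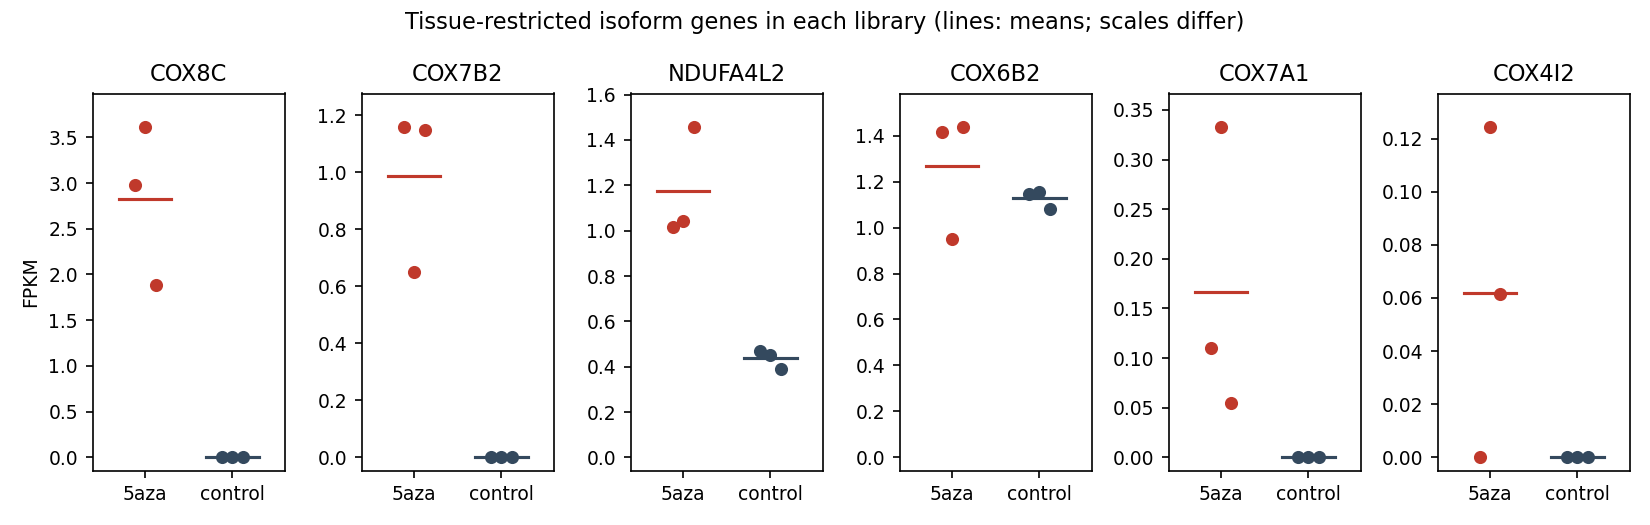
FPKM of 6 tissue-restricted isoform genes in each library, 5aza left of control, with the group mean as a line and a scale of its own in each panel. COX8C and COX7B2 lie at 0 in all 3 control libraries and above 0.6 FPKM in all 3 5aza libraries, NDUFA4L2 is apart between groups, and COX6B2 overlaps.

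Genes that work beside the chain were counted from 6 further lists. Of 13 citric acid cycle enzymes tested, 6 fell and 0 rose (median log2 change -0.13), among them FH, with 45.3 ± 3.08 FPKM in 5aza and 54.0 ± 0.526 FPKM in control cells, and IDH3B, with 72.5 ± 5.66 FPKM in 5aza and 86.3 ± 2.84 FPKM in control cells (SD, n = 3 each). Of 31 other assembly factors of the complexes, 6 fell and 0 rose (median -0.10), led by ECSIT, a complex I assembly factor, with 18.3 FPKM in 5aza and 22.4 FPKM in control cells, and TMEM242, with 9.84 FPKM in 5aza and 11.5 FPKM in control cells. Of 18 electron carriers and ubiquinone-linked enzymes, 6 fell and 0 rose (median -0.14), among them CYC1, the cytochrome c1 subunit of complex III whose symbol the rule did not take, with 266 ± 3.52 FPKM in 5aza and 320 ± 17.7 FPKM in control cells (log2 change -0.27, limma adjusted p = 0.00449), and COQ5 (-0.24). Over all genes tested 13.1% fell, a share that was larger at higher level, with 15.4% between 10 and 50 FPKM and 45.1% above 200 FPKM. The lists were not matched for level.

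Of 14 genes for mitochondrial DNA maintenance and transcription, 4 fell and 0 rose (median -0.07), among them TFAM, the packaging and initiation factor, with 32.0 ± 3.07 FPKM in 5aza and 38.9 ± 1.24 FPKM in control cells (log2 change -0.29, adjusted p = 0.0220), and MTERF3 (-0.24). Of 15 regulators of mitochondrial biogenesis, 2 fell and 1 rose: NRF1 itself fell, with 10.6, 10.4 and 9.77 FPKM in 5aza and 11.8, 12.8 and 11.9 FPKM in control libraries (log2 change -0.25, adjusted p = 0.0194), PPRC1 fell by 0.15 on the log2 scale, and PPARD rose (0.19). The share of regulators that fell stood near the 13.1% over all genes tested. Of 12 carriers, 3 fell and 0 rose (median -0.07), among them the citrate carrier SLC25A1 (83.0 ± 0.967 FPKM in 5aza and 99.5 ± 1.97 FPKM in control cells) and SLC25A10. Under TPM the medians of the last 3 lists turned to 0.01 each. Their genes then numbered 0 that fell and 0 that rose for mitochondrial DNA, 0 and 1 for the regulators and 1 and 0 for the carriers. In the same setting 2 citric acid cycle genes fell and 1 rose, 2 other assembly factors fell and 2 rose, and 2 electron carrier genes fell and 1 rose. FH, ECSIT, CYC1 and SLC25A1 fell under every alternative setting fitted to the 6 libraries or to 5 of them. NRF1, TFAM, MTERF3 and COQ5 lost their calls under TPM (adjusted p = 0.0621, 0.0566, 0.0915 and 0.0714), as did TMEM242, PPRC1 and SLC25A10 (0.113, 0.280 and 0.0566). NRF1 also lost its call without 5aza library 3 or control library 2 (0.0643 and 0.0673), and TFAM without control library 1 or 2 (0.0692 and 0.0560). COQ5 lost it without 5aza library 2 or 3 or control library 2 or 3 (0.0663, 0.0684, 0.0579 and 0.0537), and TMEM242 without 5aza library 2 or 3 or control library 1 or 2 (0.115, 0.122, 0.126 and 0.107). PPRC1 lost it without 5aza library 1 or 2 or control library 1 or 2 (0.0843, 0.0795, 0.0637 and 0.0876), and SLC25A10 without 5aza library 1 or 3 or control library 1 or 2 (0.0522, 0.0801, 0.0768 and 0.0749). IDH3B lost it without control library 2 (0.0618), MTERF3 without 5aza library 3 (0.0539), and PPARD without any library other than control library 2 (0.0504 to 0.0955). With no variance trend TFAM, TMEM242, PPRC1, SLC25A10, IDH3B and PPARD also lost it (0.0581, 0.0624, 0.0581, 0.0737, 0.0552 and 0.0551). So did PPRC1 and SLC25A10 under quantile normalization (0.0758 and 0.383) and expression-trend removal (0.0923 and 0.127). MTERF3 lost it after length-trend removal (0.0622), and TMEM242 with no filter on low values (0.0522).

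Among the 94 members outside the isoforms, the log2 change went with level across genes (Pearson r = -0.29, Spearman rho = -0.27) and little with annotated exonic length (r = 0.12, rho = 0.16). These are descriptions across genes that share the same 6 libraries. Members that fell had a median level of 165 FPKM, against 79.6 FPKM for those that did not pass. Exons of 36 members overlap a gene on the opposite strand, 12 of them members that fell. Exons of 14 overlap another protein-coding gene on the same strand, 3 of them members that fell. Beside the genes so marked above, NDUFAF3, SDHC, SDHD, ATP5PD and ATP5MK are among the former, and NDUFA9 and COX17 among the latter.

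**Figure D5:**
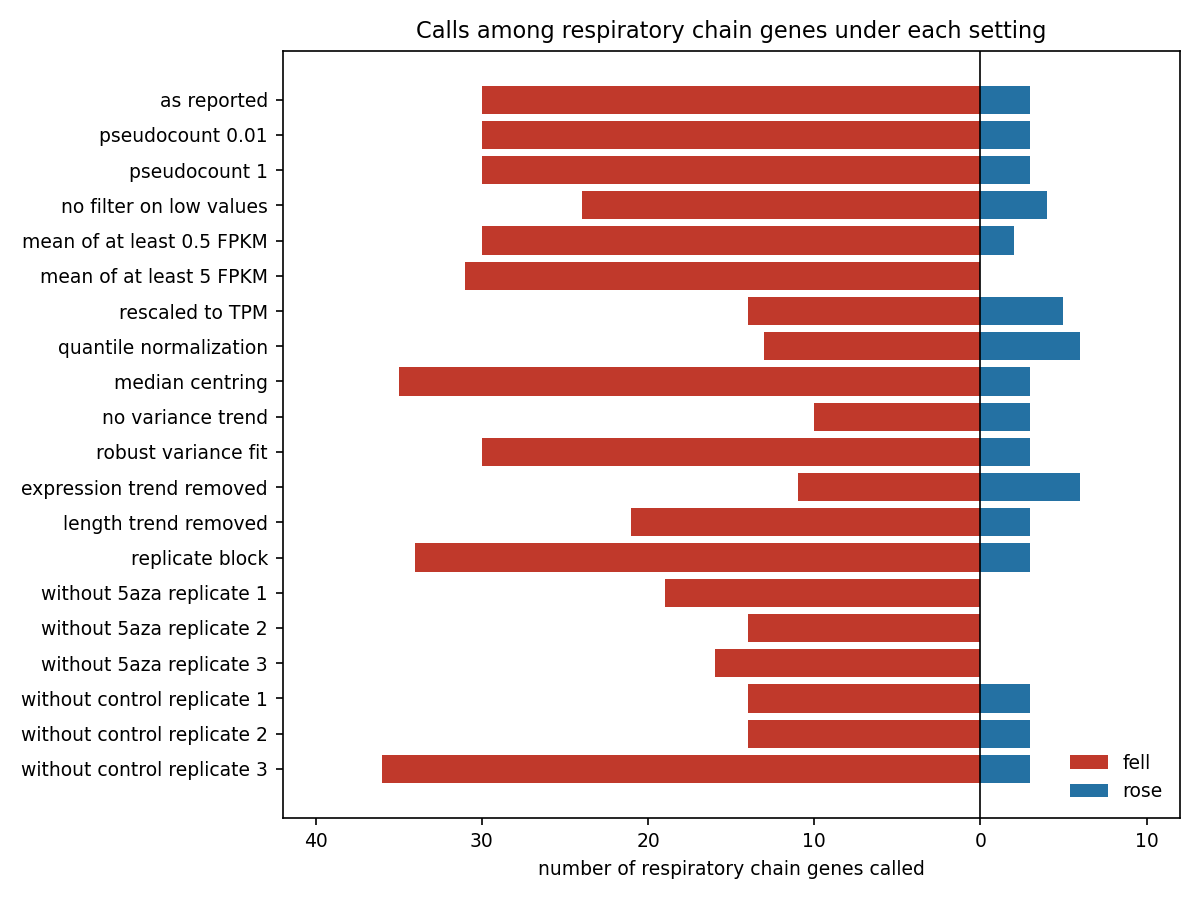
Number of member genes that fell (left of 0) or rose (right of 0) as reported and under 19 other settings. Falls range from 10 to 36 and rises from 0 to 6; settings without a 5aza library show no rise because the isoforms then drop below the filter on low values.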

How the data were processed

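Gene-level values for 6 HCT116 RNA-seq libraries were taken from 1 table of FPKM, which the authors deposited; per the file headers the unit is FPKM, and the sources used here do not name the program that computed it. The submitters' processing notes name, without roles, DESeq2 1.10.1, HTSeq 0.6.0 and STAR 2.5.1b, with Rnor_6.0 and GRCh38 as builds. Columns were matched through the sample descriptions. Of 16726 rows, 11 identifiers occurred more than once, and of their rows the one higher on average was used. Symbols came from the supplied name table and positions and exon overlaps from GENCODE 29. The sources used here do not give RNA selection or strand. FPKM hold no depth, so no count model was run.

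Values were tested as log2(FPKM + 0.1) with limma 3.58.1 in R 4.3.3 (moderated test with a variance trend, two-sided), on the 12360 genes that reached 0.5 FPKM in 3 or more of the 6 libraries, with Benjamini-Hochberg adjustment over all of them and a threshold of 0.05. The script was tested on simulated data. Sums over members were described, not tested. The main model did not pair the libraries by replicate number. Same-numbered libraries deviated together only weakly, though each correlated best with its own number. Alternatives covered pseudocounts, filters, TPM, quantile and median scaling, the variance model, removal of trends with level or length, a replicate block, and each library left out. Leaving out a library with the tested genes kept fixed was added after seeing the data.

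The members, roles and gene lists were chosen with earlier results of these data known. Values per library are given for up to 3 called genes per complex and class with the largest change and at least 5 FPKM, the most abundant gene of each complex, complex II subunits and the isoforms, and for up to 2 genes per list and direction; other genes named with values were chosen after those were seen.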

Additional observations from a re-analysis of the deposited data

How the results depend on the processing

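As reported, 30 members fell and 3 rose, these 3 being isoforms, and 1619 of all genes fell and 1310 rose. Members that fell numbered 14 under TPM, 13 under quantile normalization, 11 after the expression trend was removed and 10 without a variance trend, and 14 to 36 with 1 library left out; with the genes tested kept fixed they were 19, 15 and 17 without 5aza library 1, 2 or 3, and 14, 14 and 36 without control library 1, 2 or 3. Members that rose numbered 5 under TPM, 6 under quantile normalization and 6 after trend removal. They numbered 0 among genes averaging at least 5 FPKM, since the isoforms are then not tested. With 1 library left out they numbered 0 to 3, or 3 with the genes tested kept fixed. Those 3 are the isoforms, which entered the fixed set only through the 5aza libraries, so this count is no support. Over all genes, 779 fell and 2239 rose under TPM, 1041 fell with no variance trend, and 940 to 1523 fell and 693 to 1084 rose with 1 library left out; with the genes kept fixed, 987 fell without 5aza library 3, 1035 without control library 1 and 940 without control library 2. The share of rises among all calls was 44.7% as reported, 74.2% under TPM, 56.4% after trend removal and 54.9% with no filter. COX4I1 changed sign under TPM (0.0562), quantile normalization (0.132), trend removal (0.0955), and without 5aza library 3 (0.0039) or control library 1 (0.00354), in a range from -0.0684 with 1 library left out. So did COX6B2 under quantile normalization (-0.0812) and trend removal (-0.0351), and NDUFS5 under TPM (0.000189) and trend removal (0.0347). The causes were not tested. Same-numbered libraries deviated together only weakly (correlations 0.048, 0.077 and 0.068), though each correlated best with its own number; with the replicate block, 34 members fell and 3 rose, and 1673 of all genes fell and 1259 rose. In that fit SDHC and COX5A were not called (adjusted p = 0.051 and 0.059), and SDHD fell (0.0162). With 3 libraries a group and no read totals in FPKM, counting error cannot be separated, and values below 1 FPKM may rest on few reads.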
